A study of Mus musculus with 6 samples.

Results

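The presynaptic vesicle release machinery was examined as 53 listed genes in RNA sequencing data of the mouse prefrontal cortex (PFC). The genes were chosen by symbol from the known proteins of synaptic vesicles, SNARE complexes, the active zone and vesicle recycling, and all 53 were among the 54429 genes counted in each library. The tissue came from 3 groups of mice with 2 libraries each, at an age of 6 months. WT mice (C57BL/6 x C3H) were given vehicle, saline with a little DMSO. Tau mice carried PS19(P301S), a transgene for mutant human 1N4R tau that is driven by the mouse prion protein promoter, and were given the same vehicle. UNC0642 mice carried the same transgene and were given UNC0642, an inhibitor of the histone methyltransferases EHMT1 and EHMT2, at 1 mg/kg once daily for 3 days, and tissue was taken 24 h after the last injection. All groups thus had 3 injections, WT mice given UNC0642 were not analysed here, and the study used littermates of both sexes. The study asked which transcripts differ in Tau mice and which of them return towards WT after EHMT inhibition.

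Neurotransmitter is released when a vesicle docked at the active zone fuses with the plasma membrane. The vesicle SNARE synaptobrevin (Vamp genes) zippers with syntaxin (Stx1a) and SNAP-25 on the plasma membrane, complexins clamp and promote this step, and synaptotagmins bind calcium and trigger it. Synapsins tether the reserve pool of vesicles, RIM, Munc13, bassoon and piccolo organise and prime the release site, and dynamin, amphiphysin, synaptojanin and endophilin retrieve the membrane. In cortex most of these genes are used by excitatory and inhibitory neurons alike, while the vesicular transporters differ, with Slc17a7 in cortical excitatory neurons and Slc32a1 in inhibitory neurons.

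The promoters of 3 members are shown as examples of genes called after UNC0642 further on, Syn1 and Pclo among those called lower and Syt1 as the one called higher against Tau. They were chosen after their values were seen. Each is 300 bases of RefSeq sequence (GRCm38.p6), 250 bases before the transcription start to 50 bases after it, printed 5′ to 3′ on the strand of the gene. Capitals mark CG dinucleotides, the sites of cytosine methylation.
Syn1, chrX:20920869-20921168, minus strand: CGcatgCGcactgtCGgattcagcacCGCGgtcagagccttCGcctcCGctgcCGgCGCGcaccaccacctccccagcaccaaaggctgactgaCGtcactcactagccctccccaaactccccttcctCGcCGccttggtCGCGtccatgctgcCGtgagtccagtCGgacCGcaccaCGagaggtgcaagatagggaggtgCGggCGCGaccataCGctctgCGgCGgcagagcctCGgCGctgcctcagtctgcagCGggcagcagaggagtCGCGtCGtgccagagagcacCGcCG
Pclo, chr5:14514668-14514967, plus strand: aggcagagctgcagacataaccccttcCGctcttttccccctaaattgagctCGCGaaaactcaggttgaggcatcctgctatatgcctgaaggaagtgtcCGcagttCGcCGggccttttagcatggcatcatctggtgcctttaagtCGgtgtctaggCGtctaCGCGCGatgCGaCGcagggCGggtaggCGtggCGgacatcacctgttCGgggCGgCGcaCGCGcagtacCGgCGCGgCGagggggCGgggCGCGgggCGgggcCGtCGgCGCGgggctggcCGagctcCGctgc
Syt1, chr10:109010926-109011225, minus strand: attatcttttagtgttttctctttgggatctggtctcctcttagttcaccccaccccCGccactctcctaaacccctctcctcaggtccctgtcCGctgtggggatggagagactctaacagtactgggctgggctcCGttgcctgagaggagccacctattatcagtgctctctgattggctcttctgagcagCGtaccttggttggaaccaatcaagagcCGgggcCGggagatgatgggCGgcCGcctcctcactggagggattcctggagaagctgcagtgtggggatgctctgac
The Syn1 window held 33 CG dinucleotides and the Pclo window 35, against 8 in this Syt1 window, 1 of the 2 listed for the gene. This difference did not hold for the other members called lower against Tau. Their windows held 8 for Rab3b, 11 for Cplx3, 5, 16 and 7 for Rph3a and 16 and 1 for Synpr, while Syn3 and Vamp2 had no listed window. Over the 43 members found in the table, 57 windows had a median of 18 CG dinucleotides and 62.3% G or C, where all 32851 windows of 27025 genes had medians of 7 and 52.7%. The full cyclic AMP response element TGACGTCA, which is its own reverse complement, was present in the windows of Napa, Sh3gl2 and Syn1 and in 1.79% of all windows. In Syn1 it lay 159 to 152 bases before the start. These matches describe the letters only.

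The libraries held 17005664 to 28972176 counts. Members took 2.16% to 2.28% of the counts in every library, and the smallest count of any member in any library was 95, for Doc2b. All 53 passed the filter on low counts, which left 20409 genes for testing. Neuron markers were present throughout, with a summed level of 4153 to 4435 CPM (counts scaled to a common library total, with TMM factors) over 8 of 8 genes. With 2 mice a group, 3 degrees of freedom were left for the spread, and the biological coefficient of variation was 12.3%. A gene was called at an unadjusted p under 0.05 and a fold of at least 1.2. Unless DESeq2 is named, each adjusted p comes from the quasi-likelihood model of edgeR with Benjamini-Hochberg adjustment over the whole table. Whether the estimate was still called is given for each fit with a library left out.

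Some libraries stood apart. For members called, estimates with a single library left out are given where the call was lost. Estimates of members not called use all 6 libraries. Prnp, whose promoter drives the transgene, was at 1652 CPM in the library labelled WT replicate 1, close to the 1470 to 1694 CPM of the 4 transgenic libraries, and at 873 CPM in WT replicate 2. The same library labelled WT replicate 1 held 4 olfactory bulb markers at a sum of 61.1 CPM, against 2.5 to 3.61 CPM in the others, and Tbx21 among them had 0 counts in both Tau libraries, which allows up to 0.104 and 0.170 CPM. Tau replicate 2 held 8 of 8 striatal markers at a sum of 253 CPM against 97.7 to 123 CPM elsewhere, and 9 of 9 oligodendrocyte markers at 5533 CPM against 1463 to 2970 CPM. Xist and Ddx3y gave both Tau libraries and WT replicate 2 the female pattern and both UNC0642 libraries and WT replicate 1 the male pattern, so UNC0642 treatment and sex cannot be told apart in the comparison with Tau. The summed levels of the remaining lists were 1492 to 1976 CPM for excitatory cortical, 645 to 858 for GABAergic interneuron, 19.6 to 44.5 for layer 6b, 143 to 199 for thalamic, 4652 to 5333 for astrocyte, 290 to 365 for microglia, 127 to 185 for endothelial and 28.2 to 53.4 for meningeal fibroblast markers. In bulk tissue, fewer cells of a type and less RNA per cell cannot be told apart.

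Levels of the members were compared per length, as CPM per kilobase of annotated exons. Snap25, the plasma membrane SNARE, had the highest mean level at 442 CPM per kilobase, with 393 to 481 over the 6 libraries. No other member overlapped it. Next came Rab3a, the GTPase that brings vesicles to the active zone, at 197 (178 to 208), the endocytic GTPase Dnm1 at 189 (168 to 213), the calcium sensor Syt1 at 172 (136 to 233) and the glutamate transporter Slc17a7 at 171 (157 to 189), and these neighbours overlapped each other. The middle of the order was at 48.7 CPM per kilobase (Napa, an adaptor for SNARE disassembly). At the low end, Slc17a6, the glutamate transporter of thalamic and other subcortical neurons, had a mean of 2.75, Doc2b 1.5 and Syn3 1.01 CPM per kilobase. Among family members the order was wide. Vamp2 had 62.3 CPM per kilobase and Vamp1 8.43, Syt1 172 and Syt2 5.17, Unc13a 29.8 and Unc13b 5.05, and the log2 ratio per length to Slc17a7 was -5.96 ± 0.21 for Slc17a6 and -4.12 ± 0.08 for Slc32a1 (SD, n = 6). Cplx1 at 150 and Cplx2 at 157 overlapped. The order rests on the length used. By the longest transcript Snap25 stayed highest at a mean of 616, followed by Slc17a7 (299), Syt1 (298), Nsf (287) and Rab3a (281), with Dnm1 at rank 8. At the low end, Doc2b (1.5) was then below Syn3 (2.59).

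**Figure D1:**
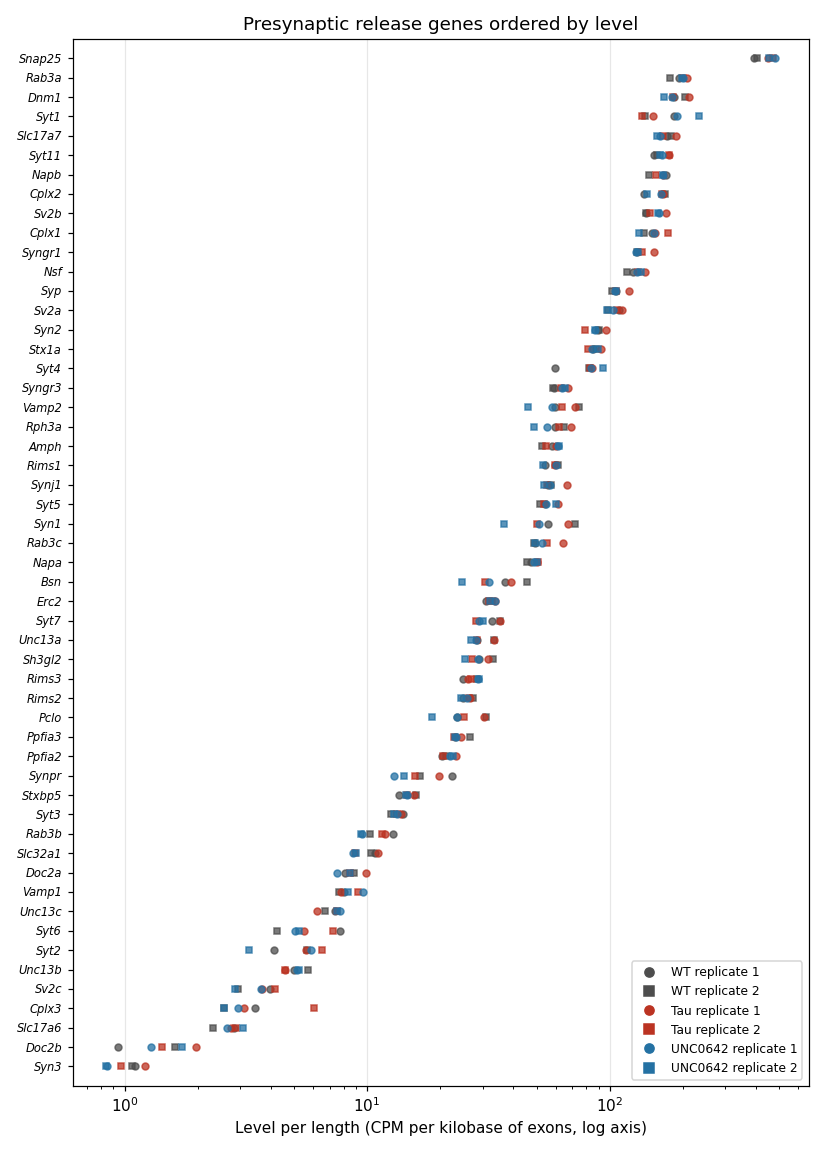
Level of each of the 53 members per length (CPM per kilobase of annotated exons, log axis), with 1 point per library. Snap25 stands alone at 393 to 481, and the members spread down to Syn3 at a mean of 1.01, while the libraries of a gene mostly lie close together.

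In Tau mice against WT mice, estimates for the release machinery were mostly small and above 0. The only member called was Rab3c, a vesicle GTPase of the Rab3 family, which was 1.22-fold higher. Rab3c is 1 of 53 members called higher, where 3.72% of all genes tested were called higher, and 0 members were called lower, where 6.1% of all genes were. The median log2 fold change of the members was 0.05, against -0.00011 over all genes, with 40 above 0 and 13 below. Medians of the neuronal marker lists were also above 0, at 0.15 for neuron, 0.098 for excitatory cortical and 0.081 for GABAergic interneuron markers. So were those of striatal (0.87), oligodendrocyte (0.77), layer 6b (0.50), microglia (0.26), thalamic (0.23) and astrocyte (0.03) markers. Those of olfactory, endothelial and meningeal fibroblast markers were below 0. The part of these markers in the member median was not tested. The Tau libraries were both above both WT libraries in 12 members (21.9% of all genes) and both below in 1 (21.4%). No member had an adjusted p under 0.05, as against 0.157% of all genes, while 4 had an unadjusted p under 0.05 and DESeq2's Wald test gave 0 adjusted p under 0.05. The 95% interval of the fold lay within 1.5-fold in either direction for 49 of 53 members and within 1.2-fold for 16. The member median moved with single libraries. Within the female pattern, with WT replicate 2 as the only WT library, it was 0.06 (all genes 0.00062). In this and every other fit that leaves a group with 1 library, that library is assumed to vary like those of the other groups, here also the UNC0642 libraries of the male pattern. Without WT replicate 2 the member median was 0.09 (all genes -0.0012). It was 0.0047 (-0.016) without Tau replicate 1 and 0.10 (-0.0071) without Tau replicate 2.

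Rab3c (chr13:110054187-110280996) was at 593 and 586 CPM in WT, 773 and 666 CPM in Tau and 635 and 595 CPM in UNC0642. Both Tau libraries were above the other 4. The log2 fold change in Tau was 0.29 ± 0.09 (SE, adjusted p = 0.271). It was 0.18 (not called) without Tau replicate 1 and 0.29 (called) without the library labelled WT replicate 1.

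Snap25 was at 2671 and 2759 CPM in WT, 3061 and 3197 CPM in Tau and 3266 and 3073 CPM in UNC0642. Both WT libraries were the lowest, and the log2 difference of 0.20 ± 0.07 in Tau (adjusted p = 0.335) lay under the fold threshold. Syt11, a synaptotagmin that does not bind calcium, was likewise under it at 0.19 ± 0.07 (adjusted p = 0.336). Its levels were 792 and 813 CPM in WT, 918 and 912 CPM in Tau and 858 and 836 CPM in UNC0642, so that Tau libraries were highest and WT lowest. It shares a 283-base stretch with the transcript 1500004A13Rik, which makes its count less certain.

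Unc13b encodes Munc13-2, a priming factor. It was at 113 and 130 CPM in WT, 105 and 104 CPM in Tau and 117 and 120 CPM in UNC0642, a log2 difference of -0.22 ± 0.09 in Tau (adjusted p = 0.36) under the fold threshold. Both Tau libraries were the lowest. Bsn, encoding the active zone scaffold bassoon, had the second smallest p among lower members, at -0.24 ± 0.15 (adjusted p = 0.54). Its Tau libraries overlapped those of WT.

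By role, all 11 SNAREs and their regulators had estimates above 0 in Tau, with a median log2 fold change of 0.11, and 0 of 11 were called. The 10 synaptotagmin and Doc2 genes had a median of 0.12 and the 10 vesicle coat and membrane proteins 0.10, with 0 called in each. The 11 active zone and priming genes had a median of -0.0022 and the 4 recycling genes 0.04. Scaling to library size alone moved the median of all genes to -0.07 and that of the members to -0.017, below 0 but still above that of all genes.

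**Figure D2:**
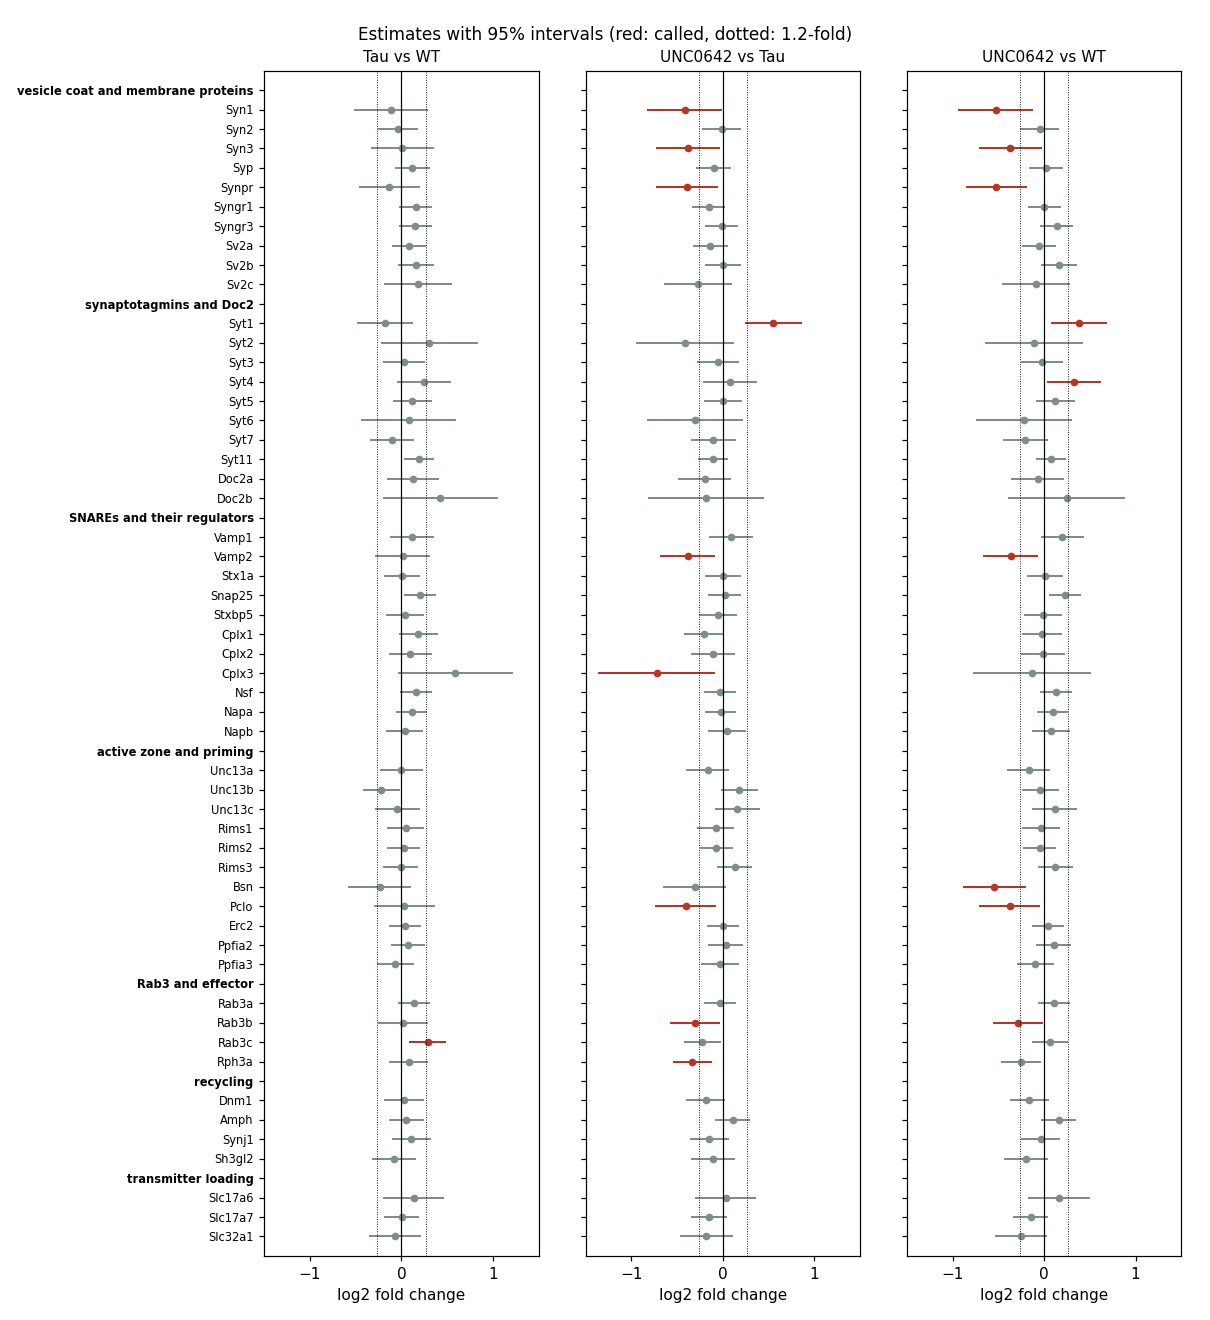
Log2 fold change of each member with its 95% interval in the 3 comparisons, grouped by role. Red marks members called at p under 0.05 and 1.2-fold (dotted lines), which are 1 for Tau against WT and 9 in each comparison of UNC0642.

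In Tau mice given UNC0642 against Tau mice given vehicle, 8 members were called lower and 1 was called higher. Syt1, the sensor for fast synchronous release, was 1.47-fold higher. The 8 members called lower were the synapsins Syn1 and Syn3, the vesicle protein synaptoporin (Synpr), the SNARE Vamp2, complexin Cplx3, the scaffold piccolo (Pclo), the GTPase Rab3b and its effector rabphilin (Rph3a), with folds of 1.23 to 1.65. Among all genes tested 3.73% were called higher and 3.95% lower. The members had a median log2 fold change of -0.10, against -0.0023 over all genes, with 39 of 53 estimates below 0 and 14 above. Both UNC0642 libraries were below both Tau libraries in 21 members (20.9% of all genes) and above in 5 (20.4%). In edgeR's quasi-likelihood test 0 members had an adjusted p under 0.05 (0.0196% of all genes did), 10 had an unadjusted p under 0.05, and DESeq2's Wald test gave 1 adjusted p under 0.05, for Syt1. Intervals lay within 1.5-fold for 41 members and within 1.2-fold for 15.

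The member median and the calls depended on single libraries. Without UNC0642 replicate 2 the median was -0.07 (all genes -0.01), and without Tau replicate 1 it was -0.03 (0.0033). In either fit most of the 8 members called lower lost their call, as given for each below. Without Tau replicate 2, the library with raised striatal and oligodendrocyte markers, the median was -0.12 (0.0039). A term for sex-linked expression rests on the 2 WT libraries alone. These also differ in Prnp and in olfactory markers, which were high in the library labelled WT replicate 1. The term thus takes out whatever separates these 2 libraries, here and below, and not sex alone. With it the member median was -0.04. Of the marker lists, 2 of 6 excitatory cortical genes were called lower in UNC0642 against Tau, as were 7 of 8 striatal and 2 of 9 oligodendrocyte genes. The excitatory sums overlapped (1976 and 1684 CPM in Tau, 1695 and 1597 CPM in UNC0642). Among these genes Neurod6 went the other way (118 and 106 CPM in Tau, 122 and 128 CPM in UNC0642). Of GABAergic interneuron, thalamic and microglia genes 1 each was called lower, and of neuron and endothelial genes 1 each was called higher. The part of these markers in the result was not tested.

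Syt1 (chr10:108497650-109010982) was at 1538 and 1172 CPM in WT, 1263 and 1134 CPM in Tau and 1576 and 1942 CPM in UNC0642. Both UNC0642 libraries were the highest of the 6, closely followed by the library labelled WT replicate 1. Against Tau the log2 fold change was 0.55 ± 0.13 (adjusted p = 0.33). The call held whichever single library was left out, at 0.39 without UNC0642 replicate 2, and was lost with the term for sex-linked expression at 0.16.

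Syn1 lies on the X chromosome (chrX:20860511-20921004). It was at 183 and 237 CPM in WT, 222 and 165 CPM in Tau and 169 and 121 CPM in UNC0642. Tau replicate 2 was below UNC0642 replicate 1, so the groups overlapped, and the log2 fold change was -0.42 ± 0.18 (adjusted p = 0.548). It was -0.20 (not called) without UNC0642 replicate 2, -0.18 (not called) without Tau replicate 1 and -0.05 (not called) with the term for sex-linked expression.

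Syn3 (chr10:86055125-86498896) was low, at 13.6 and 13.2 CPM in WT, 14.9 and 11.9 CPM in Tau and 10.4 and 10.3 CPM in UNC0642. Both UNC0642 libraries were the lowest, with a log2 fold change of -0.38 ± 0.15 against Tau (adjusted p = 0.523). The call was lost without Tau replicate 1 (-0.20) and without either UNC0642 library (-0.38 and -0.37). It was also lost with the term for sex-linked expression (-0.42). Exons of Timp3 on the opposite strand cover 14.1% of the Syn3 exons, and Timp3 had 7411 counts over the 6 libraries where Syn3 had 1714. The strand setting of the counting is not given in the sources used here, so the Syn3 counts are uncertain.

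Synpr (chr14:13284780-13616340), a relative of synaptophysin, was at 212 and 155 CPM in WT, 187 and 148 CPM in Tau and 122 and 134 CPM in UNC0642. The UNC0642 libraries were below the other 4, and the log2 fold change was -0.39 ± 0.15 against Tau (adjusted p = 0.492). It was -0.21 (not called) without Tau replicate 1 and -0.32 (not called) without UNC0642 replicate 1. With the term for sex-linked expression it was -0.84 (called). Synpr is also used by olfactory bulb neurons, and its highest value was in the library labelled WT replicate 1.

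Vamp2 (chr11:69088490-69092384), the main synaptobrevin of the forebrain, was at 226 and 285 CPM in WT, 273 and 243 CPM in Tau and 221 and 175 CPM in UNC0642. UNC0642 replicate 2 was well below all others. Against Tau the log2 fold change was -0.39 ± 0.13 (adjusted p = 0.461), -0.22 (not called) without UNC0642 replicate 2 and -0.30 (not called) without Tau replicate 1. The term for sex-linked expression took it to -0.05 (not called).

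Pclo (chr5:14514918-14863459) was at 529 and 692 CPM in WT, 680 and 566 CPM in Tau and 526 and 415 CPM in UNC0642, with the lowest value again in UNC0642 replicate 2. The log2 fold change was -0.41 ± 0.15 (adjusted p = 0.48), -0.24 (not called) without that library and -0.27 (not called) without Tau replicate 1. With the term for sex-linked expression it was -0.02 (not called).

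Rph3a (chr5:120940499-121010092), the Rab3 effector rabphilin, was at 275 and 300 CPM in WT, 321 and 287 CPM in Tau and 257 and 225 CPM in UNC0642. Both UNC0642 libraries were the lowest of the 6. Its log2 fold change was -0.33 ± 0.09 (adjusted p = 0.395), -0.24 (not called) without UNC0642 replicate 2, -0.25 (not called) without Tau replicate 1 and -0.21 (not called) with the term for sex-linked expression.

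Rab3b (chr4:108879063-108943324) was at 45.2 and 36.1 CPM in WT, 41.7 and 40.6 CPM in Tau and 33.6 and 33.3 CPM in UNC0642. The replicates of Tau and of UNC0642 lay close together and apart from each other, with a log2 fold change of -0.30 ± 0.12 (adjusted p = 0.513). The estimate stayed between -0.28 and -0.32 when a library of either group was left out, and it was not called in any of these 4 fits. With the term for sex-linked expression it was -0.62 (called).

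Cplx3 (chr9:57599992-57606281) is a complexin of retina and of a few cortical cells including deep layer neurons. It was at 10.2 and 7.58 CPM in WT, 9.15 and 17.9 CPM in Tau and 8.64 and 7.59 CPM in UNC0642, so that Tau replicate 2 alone was high. The log2 fold change of -0.72 ± 0.28 (adjusted p = 0.513) became -0.18 (not called) without Tau replicate 2. The call was also lost without either UNC0642 library (-0.82 and -0.63). It was kept with the term for sex-linked expression (-1.14). The sum of layer 6b markers was also highest in Tau replicate 2, at 44.5 CPM against 19.6 to 34.5 CPM. Ctgf made up most of it, at 32.2 CPM. Moxd1 was alike in the Tau libraries (10.58 and 10.59 CPM), and Nxph4 was highest in the library labelled WT replicate 1 (1.89 against 1.72 CPM in Tau replicate 2). The part of these markers in the Cplx3 value was not tested.

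**Figure D3:**
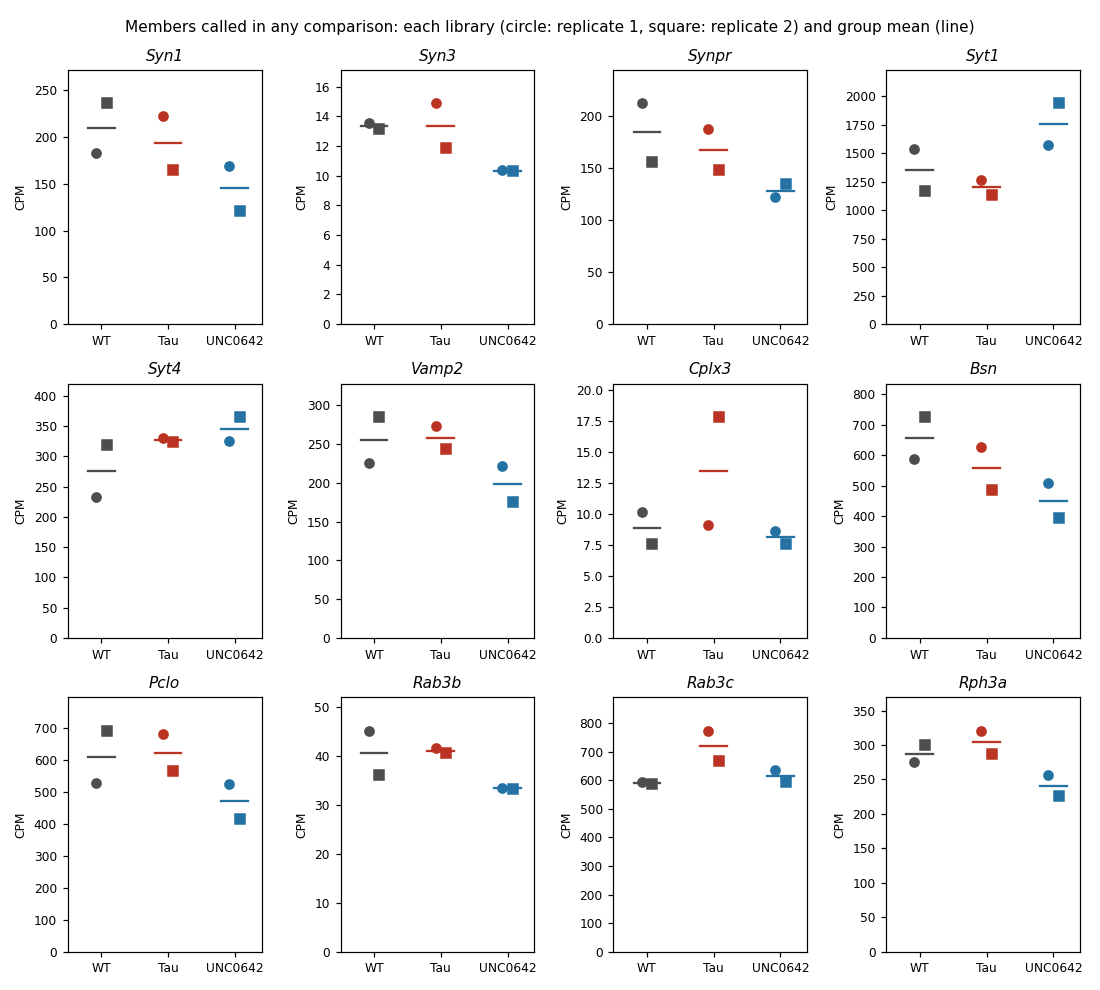
CPM of the 12 members called in any comparison, in each library (circle for replicate 1, square for replicate 2), with the group mean as a line and axes from 0. Syt1 is highest in both UNC0642 libraries, Cplx3 is high in Tau replicate 2 alone, and UNC0642 replicate 2 is the lowest library for Syn1, Vamp2, Bsn, Pclo and Rph3a.

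Core parts of the fusion apparatus were among the members not called. Stx1a, the plasma membrane syntaxin, was at 227 and 235 CPM in WT, 247 and 216 CPM in Tau and 226 and 238 CPM in UNC0642, and its groups overlapped in every comparison. The log2 difference between UNC0642 and Tau was 0.0022, with a 95% interval of -0.18 to 0.19. For Snap25 this difference was 0.02 (-0.15 to 0.18). Nsf, the ATPase that takes spent SNARE complexes apart, was at 1040 and 980 CPM in WT, 1167 and 1092 CPM in Tau and 1080 and 1128 CPM in UNC0642, a difference of -0.03 (-0.20 to 0.13) after treatment.

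Cplx1 was at 327 and 305 CPM in WT, 337 and 382 CPM in Tau and 334 and 290 CPM in UNC0642. The Tau libraries were the highest, by little, and the log2 difference of UNC0642 from Tau was -0.21 ± 0.09 (adjusted p = 0.567). Unc13b had the second smallest p among higher members, at 0.18 ± 0.09 (adjusted p = 0.592). Rab3c, called higher in Tau, differed by -0.23 ± 0.09 after UNC0642 (adjusted p = 0.499), under the fold threshold, and both comparisons use the same Tau libraries.

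Unc13a, encoding the main cortical Munc13, was at 358 and 422 CPM in WT, 420 and 358 CPM in Tau and 357 and 338 CPM in UNC0642. Rims1, the central RIM scaffold, was at 400 and 452 CPM in WT, 440 and 439 CPM in Tau and 441 and 391 CPM in UNC0642. For both the spread within WT was as wide as the difference between any groups. Rab3a was at 432 and 395 CPM in WT, 463 and 446 CPM in Tau and 445 and 442 CPM in UNC0642. The transgenic libraries were all above WT, and the difference of Tau from WT was 0.14 (-0.03 to 0.30) on the log2 scale.

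Syp, encoding the abundant vesicle protein synaptophysin and also X-linked, was at 554 and 533 CPM in WT, 627 and 555 CPM in Tau and 546 and 555 CPM in UNC0642. Tau replicate 1 alone was high, and the difference of UNC0642 from Tau was -0.10 (-0.28 to 0.08). Dnm1 was at 969 and 1073 CPM in WT, 1119 and 961 CPM in Tau and 945 and 879 CPM in UNC0642. Both UNC0642 libraries were the lowest, with a log2 difference of -0.19 (-0.40 to 0.02) from Tau.

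The transmitter loading genes were not called in any comparison. Slc17a7 was at 932 and 970 CPM in WT, 1016 and 891 CPM in Tau and 870 and 846 CPM in UNC0642, the lowest group. Slc32a1, which loads GABA and glycine, was at 30.0 and 29.1 CPM in WT, 31.0 and 25.02 CPM in Tau and 24.5 and 25.2 CPM in UNC0642. Slc17a6 was at 15.2 and 12.5 CPM in WT, 14.9 and 15.6 CPM in Tau and 14.3 and 16.7 CPM in UNC0642, with overlapping groups. The differences of UNC0642 from Tau were -0.15 (-0.33 to 0.03), -0.18 (-0.45 to 0.09) and 0.03 (-0.30 to 0.36) on the log2 scale, in that order.

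By role, the Rab3 genes and rabphilin had the lowest median in UNC0642 against Tau, -0.26 over 4 genes with 2 called lower and all 4 below 0. Of the 10 vesicle coat and membrane proteins 3 were called lower (median -0.15), of the 11 SNAREs and their regulators 2 (median -0.03), and of the 11 active zone and priming genes 1 (median -0.03). Among the 10 synaptotagmin and Doc2 genes 1 was called higher and 0 lower, and their median of -0.11 was below 0. The 4 recycling genes (median -0.13) and the 3 transmitter loading genes (median -0.15) had 0 called.

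**Figure D4:**
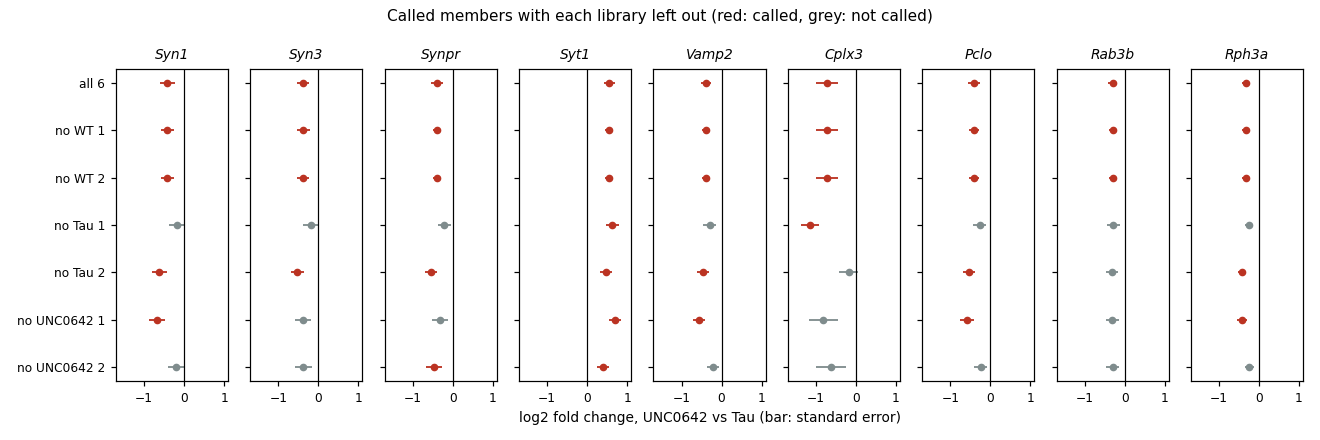
Log2 fold change of UNC0642 against Tau for the 9 members called, with all 6 libraries and with each left out (bars are standard errors, red is called). The Syt1 call stays with every single library left out, Syn1, Vamp2, Pclo and Rph3a are not called without Tau replicate 1 or without UNC0642 replicate 2, and Cplx3 moves to -0.18 without Tau replicate 2.

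Against WT mice, Tau mice given UNC0642 had 2 members called higher, the synaptotagmins Syt1 and Syt4, and 7 called lower, Bsn, Synpr, Syn1, Vamp2, Pclo, Syn3 and Rab3b. Among all genes 3.77% were called higher and 5.69% lower. The member median was -0.03 against -0.01 over all genes, with 23 above 0 and 30 below. It was 0.0014 without the library labelled WT replicate 1, 0.0093 without WT replicate 2 and 0.0089 with the term for sex-linked expression, so its sign was not stable. The UNC0642 libraries were both above WT in 16 members (22.1% of all genes) and both below in 15 (22.3%). In the quasi-likelihood test 0 members had an adjusted p under 0.05 (0.216% of all genes) and 11 an unadjusted one, and DESeq2's Wald test gave 1 adjusted p under 0.05, for Synpr. Without UNC0642 replicate 2 the member median was -0.0024, and most of the 7 members called lower lost their call. The median without WT replicate 2 is that within the male pattern, where only the library labelled WT replicate 1 is left as WT. Without that library the call of Syt4 was lost, as given below. Both comparisons of UNC0642 use the same 2 treated libraries, so calls they share are not separate evidence.

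Bsn (chr9:108096022-108190384) was at 589 and 727 CPM in WT, 626 and 487 CPM in Tau and 508 and 392 CPM in UNC0642. Both UNC0642 libraries were below both WT libraries, with a log2 fold change of -0.55 ± 0.15 (adjusted p = 0.206). It was -0.39 (called) without WT replicate 2, -0.69 (called) without the library labelled WT replicate 1, and -0.38 (not called) without UNC0642 replicate 2.

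Syt4 (chr18:31437808-31447406) encodes a synaptotagmin of dense-core vesicles and postsynaptic membranes. It was at 233 and 319 CPM in WT, 331 and 324 CPM in Tau and 325 and 366 CPM in UNC0642. The library labelled WT replicate 1 alone was low. The log2 fold change of 0.33 ± 0.13 (adjusted p = 0.347) became 0.11 (not called) without it and 0.24 (not called) without UNC0642 replicate 2.

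Synpr differed from WT by -0.52 ± 0.15 (adjusted p = 0.216), and by -0.28 (not called) without the library labelled WT replicate 1, where the olfactory markers were high. Syt1 differed by 0.38 ± 0.13 (adjusted p = 0.309), by 0.58 (called) without the library labelled WT replicate 1 and by 0.19 (not called) without WT replicate 2. Syn1 differed by -0.53 ± 0.18 (adjusted p = 0.283), and by -0.33 (not called) without WT replicate 2. The values within the male pattern are those without WT replicate 2. They were -0.73 for Synpr, 0.57 for Syt4 and -0.44 for Rab3b, all called and larger in size than with all libraries. For Vamp2 the value was -0.19 (not called), against -0.37 ± 0.13 with all libraries (adjusted p = 0.309). For Pclo it was -0.17 (not called), against -0.38 ± 0.15 with all libraries (adjusted p = 0.342).

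Rab3b differed from WT by -0.28 ± 0.12 (adjusted p = 0.376), and by -0.11 (not called) without the library labelled WT replicate 1. Syn3 differed by -0.37 ± 0.15 (adjusted p = 0.373) and lost its call whichever single library of WT or UNC0642 was left out, while its estimate stayed between -0.39 and -0.35. Without UNC0642 replicate 2 the calls against WT were also lost for Syt1 (0.22), Syn1 (-0.31), Vamp2 (-0.21), Pclo (-0.22) and Rab3b (-0.28), and that of Rab3b also without UNC0642 replicate 1 (-0.29). Snap25 had the smallest p of the higher members, at 0.22 ± 0.07 (adjusted p = 0.282), under the fold threshold.

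Another 66 presynaptic genes, listed by function, were read in the same fit, and 64 of them passed the filter. In Tau against WT 1 was called higher (3.72% of all genes) and 1 lower (6.1%), with a median of 0.056 over the 64. The higher one was Cadps2, a priming factor of dense-core vesicles, at 148 and 146 CPM in WT, 179 and 187 CPM in Tau and 181 and 167 CPM in UNC0642 (log2 0.32 ± 0.08, adjusted p = 0.198). The lower one was Doc2g, at 17.4 CPM in the library labelled WT replicate 1 and 0.859 to 1.13 CPM elsewhere, and it is among the olfactory markers. In UNC0642 against Tau 0 were called higher (3.73% of all genes) and 4 lower (3.95%), among them Syt9, Dnm3 and Sncb. The median was -0.03 over the 64.

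Syt9, a fast calcium sensor, was at 9.86 and 8.83 CPM in WT, 8.44 and 8.07 CPM in Tau and 4.62 and 5.82 CPM in UNC0642, and its groups did not overlap (log2 -0.65 ± 0.19 against Tau, adjusted p = 0.411). Against WT 2 were called higher (Synj2 and Sh3gl1) and 7 lower (among them Syt9, Syt10, Ppfia1, Dnm3, Sncb and Doc2g). Among all genes 3.77% were called higher and 5.69% lower. The smallest adjusted p among those called was 0.0738, for the synaptojanin Synj2 against WT.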

How the data were processed

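RNA of PFC tissue from 6 mice was made into strand-specific libraries after removal of ribosomal RNA. The authors trimmed reads with Cutadapt, aligned them with TopHat2 to mouse RefSeq mRNAs (the processing notes name mm10) and deposited featureCounts counts per gene, not normalized. SAMtools and edgeR are also in those notes. Versions and the strand setting are not given in the sources used here. Further, 26 gene symbols of WT replicate 2 and Tau replicate 2 were spelled as dates and were joined by row order.

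Genes were kept by filterByExpr (minimum count 10, minimum total 15), which left 20409, and scaled by TMM (factors 0.966 to 1.04). A quasi-likelihood model with group means was fitted to all 6 libraries with edgeR 4.0.16 in R 4.3.3, and Benjamini-Hochberg adjustment covered every gene in the fit. The call rule follows the threshold of the study. Standard errors and 95% intervals come from the model, SDs from libraries. A floor of 0 counts was taken as 3 counts, and floors cover counting error only. Exon lengths and coordinates came from GENCODE M21 (GRCm38), which matched all 53 members, and promoters from RefSeq. Scripts were tested on simulated data.

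The members, the lists and the tests were chosen with earlier results of these data known. Values in every library are given for members called in any comparison, with an adjusted p under 0.05, with the 2 smallest p in each direction, or chosen as anchors of a role. Of the other presynaptic genes, those shown were chosen after their values were seen, and 1 of those called is not reported here. Alternatives were DESeq2 size factors, library size alone, other filters, the DESeq2 1.42.0 Wald test, limma-voom (limma 3.58.1), the compared groups alone, a replicate block, a term for sex-linked expression, stricter thresholds, and fits without each library. Leaving out the library labelled WT replicate 1 and Tau replicate 2 together was added after the marker levels were seen.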

Additional observations from a re-analysis of the deposited data

How the results depend on the processing

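No log2 fold change of a called member turned sign under any alternative. DESeq2 size factors, limma-voom and fits of the compared groups alone kept the counts of called members in each comparison within 1.5 times. For Tau against WT, the 1 member called higher became 0 with library size alone, 3 with no filter, 2 with the DESeq2 Wald test, 4 with the term for sex-linked expression, 0 at 1.5-fold and 0 by adjusted p, and 1 to 5 with libraries left out. The 0 called lower became 2 with library size alone and 2 with the sex term, and 0 to 2 with libraries left out. The member median was -0.017 with library size alone (all genes -0.07) and 0.0047 to 0.14 with libraries left out. For UNC0642 against Tau, the 1 called higher became 3 with the sex term, 0 at 1.5-fold and 0 by adjusted p, and was 1 to 2 with libraries left out. The 8 called lower became 5 with the DESeq2 Wald test, 1 at 1.5-fold and 0 by adjusted p, and 1 to 15 with libraries left out. The median was -0.042 with the sex term and -0.12 to -0.026 with libraries left out. For UNC0642 against WT, the member median of -0.03 was 0.0089 with the sex term and -0.05 to 0.0093 with libraries left out, and the 2 called higher became 0 at 1.5-fold and 0 by adjusted p, and 1 to 2 with libraries left out. The 7 called lower became 3 with the DESeq2 Wald test, 4 with the sex term, 0 at 1.5-fold and 0 by adjusted p, and 1 to 9 with libraries left out. The cause of these changes was not tested. Counts with libraries left out or with the sex term show how calls moved. They are not set against the share of all genes. The median level of the members was 59.1 CPM per kilobase by the longest transcript, against 48.7.

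With no filter on low counts, 1 member had an adjusted p under 0.05 for Tau against WT, 9 for UNC0642 against Tau and 8 for UNC0642 against WT. That fit held 34535 genes. Against Tau its estimates for Syn1 (-0.42) and Syt1 (0.56) were close to the main ones. Their standard errors were 0.09 and 0.07 in place of 0.18 and 0.13. The smaller p of these 2 genes thus came with smaller errors, and the share of all genes is not given for this fit. The term for sex-linked expression leaves UNC0642 compared with the library labelled WT replicate 1 alone. Estimates against WT were then -0.73 for Synpr and 0.57 for Syt4, as without WT replicate 2. Counts by adjusted p are not given for that fit or for fits that leave a group with 1 library. Leaving out the library labelled WT replicate 1 and Tau replicate 2 together gave a member median of -0.12 for UNC0642 against Tau (all genes 0.0037). It left 1 residual degree of freedom, and the lone library of a group was assumed to vary like the others.

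Replicate numbers mark different mice, and deviations of same-numbered libraries correlated at -0.03, -0.02 and -0.0033, so the numbers do not pair the samples. A replicate block gave 2 members called higher for Tau against WT in place of 1, and 9 called in each of the other comparisons.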

Other observations

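Ratios of related members within a library do not depend on library scaling. The log2 ratio of Vamp1, a synaptobrevin enriched in brainstem, spinal cord and fast-firing cells, to Vamp2 was -2.89 and -3.29 in WT, -3.20 and -2.80 in Tau and -2.60 and -2.45 in UNC0642, per length. Both UNC0642 libraries had the highest ratios. The ratio of Syn2 to Syn1 was 0.69 and 0.33 in WT, 0.52 and 0.66 in Tau and 0.76 and 1.24 in UNC0642, also highest in both UNC0642 libraries. With 2 libraries against 2, an exact two-sided permutation test cannot reach 0.05, so these are values without a test. Cplx1 to Cplx2 stayed between -0.29 and 0.11, and Slc32a1 to Slc17a7 between -4.21 and -4.01. Sv2b to Sv2a was 0.38 and 0.52 in WT, 0.59 and 0.45 in Tau and 0.64 and 0.70 in UNC0642. Unc13b to Unc13a was -2.51 and -2.55 in WT, -2.86 and -2.63 in Tau and -2.46 and -2.35 in UNC0642, with the Tau libraries lowest. Syt2 to Syt1 ranged from -6.17 to -4.39 with overlapping groups. By the longest transcript the mean of Syn2 to Syn1 was 1.55 in place of 0.70, so the level of a ratio rests on the length used.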
